A study of Mus musculus with 16 samples.

Results

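Glul, Rhbg, Oat, Lect2, Slc1a2, Gulo, Axin2 and Lgr5 are genes used as markers of pericentral hepatocytes, the liver cells around the central vein. They were taken by gene symbol, with all transcript rows of a symbol summed, which gave 8 of the 20826 symbols in the table and 10 transcript rows. They were chosen by name, with no rule on their values, but with earlier results of these data known. Together they held 825 tags in the 16 libraries.

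The livers came from male C57BL/6J mice, each library from a separate mouse, and their transcripts were counted by SuperSAGE, in which a short tag next to a cut made by the enzyme NlaIII is sequenced for each transcript. HFW mice ate a high-fat diet with 45% fat and 1% WEPAK, an extract of Pacific krill made with water, and HF mice ate the same diet without the extract. NW mice ate a normal diet with 10% fat and 1% WEPAK, and N mice ate the normal diet alone. Each group had 4 mice, named here by group and number, and feeding lasted 18 weeks. The labels give an age of 4 weeks and name no genetic change.

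Blood crosses the liver lobule from the portal vein to the central vein, and hepatocytes along this path express different genes. Wnt signals from endothelial cells of the central vein activate beta-catenin in the nearest hepatocytes, which then express glutamine synthetase and its partners. These cells take up the ammonia that the urea cycle of the periportal cells has left in the blood and bind it into glutamine. The libraries came from whole liver, so fewer cells of a type and less RNA per cell cannot be told apart, and the place of a transcript in the lobule was not measured.

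The gene counts rest on the tags themselves, so the predicted tag of each transcript row is shown. Each is the 26-base stretch that starts at the last NlaIII site, CATG, of the matching GENCODE vM21 transcript. The site is in capitals and the sequence runs 5′ to 3′ along the transcript.
Glul: CATGtatagtatgttcggttagataa
Rhbg: CATGggatgccaggggtcctgggggc
Oat: CATGaagctgccctctgacgttgtga
Lect2: CATGccctgctcccgaagaaacgtgc
Gulo: CATGgcctggccctcacagtgtctct
Axin2: CATGgcagtttgttctactttagact
Lgr5: CATGtaaatacgtagtgcttgtaaat
Slc1a2 transcript A: CATGagtattcctccctactctgtat
Slc1a2 transcript B: CATGctcctcattctcacagctgtgg
Slc1a2 transcript C: CATGtgtaaaataactggatattctt

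On GRCm38 the Glul tag lies at chr1:153909577-153909602 on the plus strand, in the 3′ UTR in exon 7 of 7. The Rhbg tag lies at chr3:88245187-88245212 on the minus strand, in coding sequence of exon 7 of 10. The Oat tag lies at chr7:132559700-132559725 on the minus strand, in coding sequence of exon 9 of 10. The Lect2 tag lies at chr13:56542627-56542652, the Gulo tag at chr14:65987040-65987065 and the Lgr5 tag at chr10:115450381-115450406, all on the minus strand in the 3′ UTR of the last exon. The Axin2 tag lies at chr11:108950654-108950679 on the plus strand, in the 3′ UTR of exon 11 of 11. The 3 Slc1a2 transcripts have their last site at different places on the plus strand. That of transcript A is at chr2:102778034-102778059 in a 3′ UTR, that of B at chr2:102766993-102767018 in coding sequence, and that of C at chr2:102790656-102790681 in a 3′ UTR. The Rhbg tag is also the last tag of 1 other gene model, Gm38392, so its tags could come from either. The other tags were found in no other gene. Whether the authors matched reads to these same tags is not given in the sources used here.

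All 8 genes had at least 1 tag, but at low depth. Totals over the 16 libraries were 184 tags for Oat, 157 for Slc1a2, 141 for Rhbg, 132 for Gulo, 117 for Glul, 85 for Lgr5, 8 for Lect2 and 1 for Axin2. Library totals ran from 56684 to 149464 tags, and HF libraries were the deepest on average. The mean in named genes was 75749 ± 21588 tags in HFW, 118882 ± 23746 in HF, 74198 ± 30660 in NW and 75963 ± 16768 in N (SD, n = 4 each). A single tag was worth 6.70 to 17.7 CPM, the tag count scaled to equal library totals. Levels below are CPM of the normalized library size. Tag capture can differ between sites, so levels are compared between mice and not between genes. Glul, Oat, Slc1a2 and Gulo had enough tags to be among the 1046 genes tested with edgeR's quasi-likelihood test, and Rhbg, Lgr5, Lect2 and Axin2 did not.

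Markers of other cells were counted in the same libraries. Markers of all hepatocytes (Alb, Apoa1, Apoa2, Ttr and Apoe) held 3.96% to 7.19% of the tags in HFW, 4.66% to 5.56% in HF, 6.53% to 7.78% in NW and 4.79% to 6.78% in N. The 7 endothelial markers held 0.0265% to 0.0321% in HFW, 0.0199% to 0.0277% in HF, 0.0191% to 0.0313% in NW and 0.0183% to 0.0300% in N. The 6 stellate cell markers held 0.0692% to 0.347% in HFW, 0.0426% to 0.319% in HF, 0.0326% to 0.0815% in NW and 0.0402% to 0.0795% in N. The 6 Kupffer cell markers in the table held 0.00676% to 0.0237% in HFW, 0.00866% to 0.0335% in HF, 0.0103% to 0.0173% in NW and 0.0191% to 0.0309% in N, so NW and N did not overlap. The Kupffer shares rest on 6 to 15 tags per library in NW and 14 to 30 in N, and none of these genes was tested. Among all genes tested, 15.5% separated NW from N fully. The 5 erythroid markers ranged from 4 to 20 tags per library. The bile duct markers Krt19 and Krt7 and all 3 adipocyte markers were at 0, and cholangiocyte, lymphocyte and pancreatic acinar markers reached at most 5 tags in a library. For the mean high-fat effect the collagen genes Col1a1 and Col3a1 had 1.65 (SE 0.67, adjusted p = 0.2 in edgeR) and 1.42 (SE 0.49, adjusted p = 0.134). For the mean WEPAK effect Ttr rose by 0.85 (SE 0.26, adjusted p = 0.0141 in edgeR). It was 1 of 3 tested hepatocyte markers, and 31.3% of all genes passed there. The part of these markers in the results was not tested.

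Glul encodes glutamine synthetase, which binds ammonia to glutamate. It had 46.4, 139.8, 149 and 56.4 CPM in HFW mice 34, 36, 38 and 40, against 84.2, 113, 32.8 and 59.3 CPM in HF mice 23, 25, 28 and 29. Glul had 51.2, 169.9, 93.6 and 156 CPM in NW mice 11, 12, 15 and 20, against 89.3, 57.2, 39.7 and 33.2 CPM in N mice 4, 5, 7 and 8. NW mice 12 and 20 and HFW mice 36 and 38 were the highest, and all 4 groups overlapped. Only these 4 mice, all fed the extract, reached the level that let Glul be tested. Its differences with the extract are therefore not independent of that choice. Group means were 97.9 ± 54.0 CPM in HFW, 72.2 ± 34.2 in HF, 118 ± 55.5 in NW and 54.8 ± 25.1 in N (SD, n = 4 each). From high to low the order is NW, HFW, HF and N, and each step between neighbours was smaller than the SD of either. The log2 difference between the ends of this order, NW against N, was 1.14 (SE 0.53, 95% interval 0.06 to 2.23). Its unadjusted p was 0.0397 and its adjusted p 0.149 in edgeR's quasi-likelihood test, so it did not pass. The 37 Glul tags summed over the NW libraries equal 125 CPM of their raw total (exact Poisson 95% interval 87.8 to 172). The 17 tags summed over the N libraries equal 55.9 CPM (32.6 to 89.6), and these intervals cover counting error only. On the high-fat diet the Glul difference with the extract was 0.29 (SE 0.50, adjusted p = 0.744 in edgeR), and the interaction between extract and diet, -0.86 (SE 0.73), had an adjusted p of 0.998. With a mouse left out, HFW against HF ran from 0.012 to 0.64 and NW against N from 1.07 to 1.42. The difference in HF against N, 0.40 (SE 0.53) with all mice, ran from 0.070 to 0.69. These ranges hold 15 fits, since Glul fell below the filter without NW mouse 12, the liver with its highest value. The range of NW against N therefore does not cover the loss of that mouse.

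Rhbg, a transporter of ammonium across the cell membrane, had by far its highest value in a single liver. It had 69.6, 34.9, 112 and 103 CPM in HFW mice 34, 36, 38 and 40, against 52.6, 93.9, 409 and 76.3 CPM in HF mice 23, 25, 28 and 29. Rhbg had 34.1, 51.0, 56.2 and 86.9 CPM in NW mice 11, 12, 15 and 20, against 89.3, 85.8, 39.7 and 49.8 CPM in N mice 4, 5, 7 and 8. HF mouse 28 held 50 of the 141 Rhbg tags, while the other 15 mice had 2 to 15 each and their groups overlapped. This library stood apart in other genes too. It had 2432 CPM of the collagen gene Col3a1, against 211 to 657 CPM in the other 3 HF mice, and 418 CPM of Col1a1, against 10.5 to 106 CPM. It was the lowest of the 4 HF mice in Cps1, with 3120.01 CPM against 7595 to 9138 CPM, in Alb, with 2809 CPM against 3855 to 5327 CPM, in Arg1, with 1859 CPM against 3001 to 5011 CPM, and in Glul, with 4 tags. Not all hepatocyte genes were low in it. Apoa2 was the highest of the 4, with 48372.5 CPM against 39495 to 47827 CPM, and Hsd17b13 had 893 CPM against 853 to 1026 CPM. HFW mouse 34, with a like Col3a1 level of 2645 CPM, had 69.6 CPM of Rhbg. The part of these differences in the Rhbg value was not tested. Rhbg averaged 79.9 ± 35.1 CPM in HFW, 158 ± 168 in HF, 57.0 ± 22.02 in NW and 66.2 ± 25.1 in N (SD, n = 4 each). In exact two-sided permutation tests, HF minus N was 91.9 CPM (p = 0.343) and HFW minus HF was -78.1 CPM (p = 0.629), where 4 mice against 4 cannot give a p under 0.0286. Without HF mouse 28 these differences were 8.11 CPM (exact permutation p = 0.686) and 5.66 CPM (exact permutation p = 0.771). In the edgeR fit with no filter, which also holds Rhbg, HF against N had a log2 difference of 1.41 (SE 0.46, unadjusted p = 0.00201, adjusted p = 0.719), with HF mouse 28 included. For both extract states together, high-fat minus normal was 57.4 CPM (exact permutation p = 0.122, adjusted over the 12 tests of Rhbg and Lgr5 0.61), and 15.5 CPM without HF mouse 28 (exact permutation p = 0.256).

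Oat encodes ornithine aminotransferase, which turns ornithine into a precursor of glutamate and proline. It had 81.2, 175, 186 and 159.7 CPM in HFW mice 34, 36, 38 and 40, against 179, 156, 115 and 110.2 CPM in HF mice 23, 25, 28 and 29. Oat had 188, 85.0, 149.8 and 156 CPM in NW mice 11, 12, 15 and 20, against 179, 114, 66.2 and 66.4 CPM in N mice 4, 5, 7 and 8. N mice 7 and 8 were the lowest of the 16, but N mouse 4 was among the highest, so all groups overlapped. The means were 150.5 ± 47.5 CPM in HFW, 145 ± 43.1 in NW, 140.1 ± 33.3 in HF and 106 ± 53.2 in N (SD, n = 4 each), and no neighbours in this order differed by more than the larger of their SDs. Oat differed by 0.38 (SE 0.38) in HF against N, 0.08 (SE 0.37) in HFW against HF, 0.37 (SE 0.41) in NW against N and 0.09 (SE 0.39) in HFW against NW on the log2 scale. With a mouse left out Oat ran from 0.26 to 0.70 in HF against N and 0.20 to 0.68 in NW against N. The adjusted p of these values in edgeR ran from 0.598 for NW against N to 0.939 for HFW against NW.

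Slc1a2 is a high-affinity glutamate transporter, best known from astrocytes, that supplies substrate to glutamine synthetase. It had 104, 105, 242 and 197 CPM in HFW mice 34, 36, 38 and 40, against 84.2, 169, 106 and 67.8 CPM in HF mice 23, 25, 28 and 29. Slc1a2 had 119, 85.0, 112 and 104 CPM in NW mice 11, 12, 15 and 20, against 14.9, 57.2, 132 and 99.7 CPM in N mice 4, 5, 7 and 8. HFW mice 38 and 40 were the highest and N mice 4 and 5 the lowest, and all 4 groups overlapped. Means were 162 ± 68.9 CPM in HFW, 107 ± 44.3 in HF, 105 ± 14.9 in NW and 76.0 ± 51.1 in N (SD, n = 4 each). The log2 difference was 0.55 (SE 0.41) in HFW against HF, 0.44 (SE 0.50) in NW against N, 0.54 (SE 0.45) in HF against N and 0.64 (SE 0.45) in HFW against NW. With a mouse left out these ran from 0.34 to 0.89 in HFW against HF, 0.13 to 0.92 in NW against N, 0.21 to 1.00 in HF against N and 0.44 to 0.79 in HFW against NW. Averaged over both extract states, the high-fat difference was 0.59 (SE 0.32, 95% interval -0.06 to 1.24). Its unadjusted p was 0.0737 and its adjusted p 0.293 in edgeR's quasi-likelihood test. Only N mouse 7, HF mouse 25 and HFW mice 38 and 40 reached the level that let Slc1a2 be tested. Apart from N mouse 7 these ate the high-fat diet, and none was an NW mouse. Differences with the high-fat diet, and those that involve HFW or NW, are therefore not fully independent of that choice.

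The Slc1a2 tags came from 2 of its 3 transcript rows. Whether the predicted tag of a row also occurs within another Slc1a2 transcript was not checked. The shares below are therefore of tags and not of transcripts. Transcript A held 110 of the 157 tags, or 70.1% (Wilson 95% interval 62.5% to 76.7%), transcript B held 47, and transcript C held 0, for which the upper limit of the interval is 2.39%. By group the share of transcript A was 65.3% in HFW (51.3% to 77.1%), 71.4% in HF (58.5% to 81.6%), 69.0% in NW (50.8% to 82.7%) and 78.3% in N (58.1% to 90.3%), with Wilson intervals that overlap in all 4 groups.

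Gulo encodes gulonolactone oxidase, the last enzyme of vitamin C synthesis in mice. It had 58.0, 139.8, 93.2 and 141 CPM in HFW mice 34, 36, 38 and 40, against 94.7, 125, 98.3 and 76.3 CPM in HF mice 23, 25, 28 and 29. Gulo had 68.2, 68.0, 56.2 and 52.1 CPM in NW mice 11, 12, 15 and 20, against 104, 153, 26.5 and 99.7 CPM in N mice 4, 5, 7 and 8. The 4 NW mice lay close together, and N mouse 7, with 2 tags, was lower than any of them while the other 3 N mice were higher. Means were 108 ± 40.1 CPM in HFW, 98.6 ± 20.2 in HF, 61.1 ± 8.22 in NW and 95.7 ± 52.0 in N (SD, n = 4 each), and those of HFW, HF and N lie within 1 SD of each other. Gulo was the only 1 of the 4 tested genes with a negative log2 difference in NW against N, at -0.65 (SE 0.50, adjusted p = 0.418 in edgeR). It differed by 0.78 (SE 0.49, adjusted p = 0.505 in edgeR) in HFW against NW, 0.12 (SE 0.42) in HFW against HF and 0.02 (SE 0.43) in HF against N. Only N mouse 5, HF mouse 25 and HFW mice 36 and 40 reached the level that let Gulo be tested, and no NW mouse did. Its differences that involve NW are therefore not independent of that choice.

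Lgr5, Axin2 and Lect2 are targets of Wnt signalling. Lgr5, a receptor for R-spondins that strengthens the Wnt signal, had 23.2, 34.9, 74.5 and 103 CPM in HFW mice 34, 36, 38 and 40, against 73.7, 113, 57.3 and 67.8 CPM in HF mice 23, 25, 28 and 29. Lgr5 had 85.3, 25.5, 0 and 34.8 CPM in NW mice 11, 12, 15 and 20, against 74.4, 66.7, 26.5 and 33.2 CPM in N mice 4, 5, 7 and 8. Only NW mouse 15 had no Lgr5 tag, where 3 tags would equal 52.0 CPM of its raw total. Each other group had at least 2 mice below all 4 HF mice. Lgr5 means were 59.0 ± 36.8 CPM in HFW, 77.9 ± 24.2 in HF, 36.4 ± 35.8 in NW and 50.2 ± 23.9 in N (SD, n = 4 each). The mean high-fat difference of Lgr5 was 25.1 CPM (exact permutation p = 0.111, adjusted 0.61 over the 12 tests), and HF against N differed by 27.7 CPM (exact permutation p = 0.2). Lect2, a secreted protein of hepatocytes, had 2 tags in HFW, 1 in HF, 1 in NW and 4 in N, from 6 mice in all. Axin2, a scaffold of the complex that degrades beta-catenin, had its only tag in N mouse 5, and 0 tags in HFW, HF and NW. In these groups 3 tags over the group would equal 9.90, 6.31 and 10.1 CPM of the raw totals. Differences in Lect2 and Axin2 were not detectable at this depth.

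Set against all genes tested, 0 of the 4 tested genes passed an adjusted p of 0.05 in any of the 7 contrasts. In HF against N, 0 of 4 passed, beside 0.0956% of the 1046 genes, and 103 genes had an unadjusted p under 0.05. In HFW against HF 0 of 4 passed beside 9.85%, and in NW against N 0 of 4 beside 11%. In HFW against NW 0 of 4 passed beside 0%, a contrast in which 126 genes had an unadjusted p under 0.05 and the DESeq2 Wald test and limma-voom also called 0. For the mean of both WEPAK contrasts, where 31.3% of all genes passed, Glul had 0.71 (SE 0.37, adjusted p = 0.136), Slc1a2 0.50 (SE 0.32, adjusted p = 0.25), Oat 0.22 (SE 0.28, adjusted p = 0.578) and Gulo -0.27 (SE 0.32, adjusted p = 0.573). For the mean of both high-fat contrasts, where 0.574% passed, the 4 values ran from -0.02 for Glul to 0.59 for Slc1a2, with 0 of 4 passing. For the interaction 0 of 4 passed beside 0% of all genes, with 26 genes at an unadjusted p under 0.05 and 0 calls by DESeq2 and limma-voom, and the values ran from -0.86 for Glul to 0.77 for Gulo. Of the 4 tested genes only Glul had an unadjusted p under 0.05, and only in NW against N. Glul was among the tested genes only through mice fed the extract, so this value is not independent of the filter. Differences of Gulo that involve NW, and those of Slc1a2 with the high-fat diet, have a like limit. In no contrast of 2 groups did the mice of a tested gene separate fully, while 3.06% of all genes did so in HF against N, 15.7% in HFW against HF, 15.5% in NW against N and 8.8% in HFW against NW. The intervals are wide, such as -0.67 to 0.82 for Oat and -0.28 to 1.38 for Slc1a2 in HFW against HF, so the tests do not show that the genes were unaffected.

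**Figure D1:**
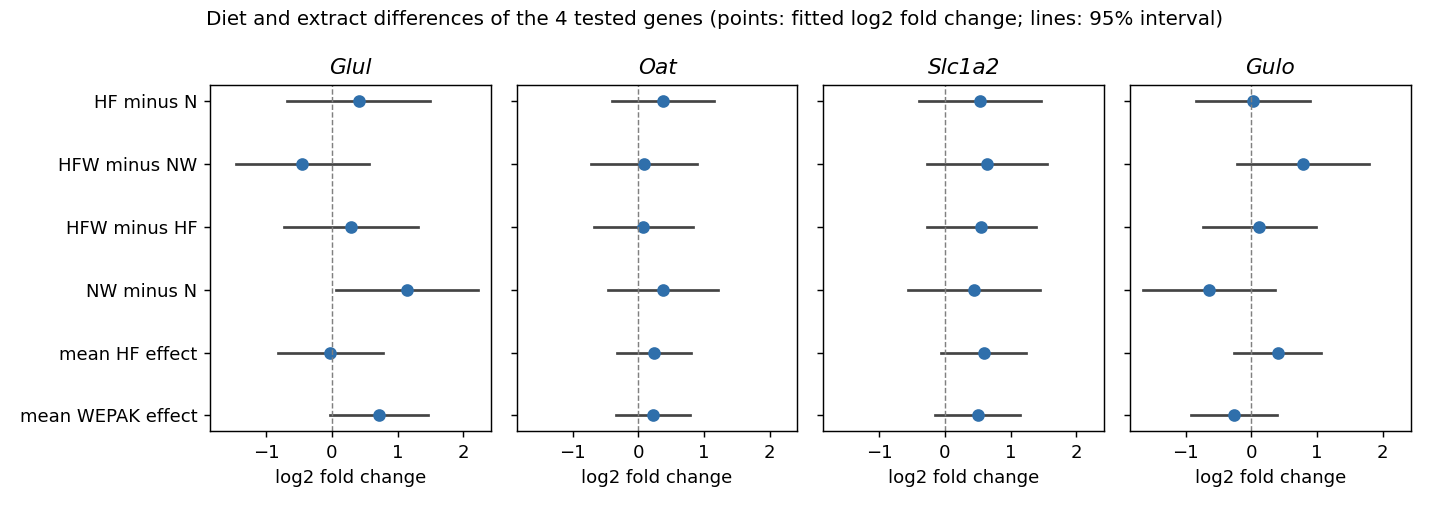
Fitted log2 fold changes (horizontal axis) of the 4 tested genes in 6 contrasts (rows), with 95% intervals as lines and 0 as a dashed line; mean HF and mean WEPAK are averages over both extract states and both diets. Only the interval of Glul in NW minus N, 0.06 to 2.23, leaves out 0, and its adjusted p was 0.149.

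None of the correlations among the 4 tested genes from liver to liver passed after adjustment. Each group's mean was first taken off the log2 CPM of its mice. Over the 16 mice, the 6 Pearson correlations of these values ran from -0.23 for Oat with Slc1a2 to 0.51 for Oat with Gulo (Spearman 0.44). That of Glul with Oat was 0.40 (Spearman 0.36). With mice permuted within groups, permutation p-values of Pearson's r, adjusted over the 6 pairs, were 0.488 to 0.649. Those of Spearman's rho were 0.641 to 0.944. The r of Glul with Oat was 0.63 without NW mouse 11 (unadjusted permutation p = 0.0205) and 0.64 without NW mouse 12 (unadjusted permutation p = 0.0108). Each mouse had few tags of these genes, so the values cannot show that the genes vary apart. Without the 2 mice farthest from the median of the first gene, r was 0.49 for Oat with Gulo, 0.58 for Glul with Oat, -0.53 for Oat with Slc1a2 and, with its sign turned from -0.22, 0.29 for Slc1a2 with Gulo.

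Of the 1045 other tested genes, those whose log2 CPM followed Glul most closely over the 16 mice were H2-K1 (r = 0.60), Cyth1 (r = 0.60) and H2-D1 (r = 0.56). For Oat they were Chpf2 (r = 0.75), M6pr (r = 0.73) and Ahsg (r = 0.65), for Slc1a2 Irf1 (r = 0.80), Oplah (r = 0.72) and Hist1h2bb (r = 0.70), and for Gulo Glud1 (r = 0.75), Usp4 (r = 0.73) and Serpina6 (r = 0.67). With the group means removed, r was 0.45 for H2-K1, 0.73 for Chpf2, 0.70 for Irf1 and 0.80 for Glud1. These are the highest of 1045 values each and share libraries and depth, and they are given as a description.

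Among other genes of pericentral nitrogen handling and transport, Slc13a3, a sodium-coupled transporter of dicarboxylates such as succinate, was higher with the extract. It had 418, 524, 578 and 498 CPM in HFW mice 34, 36, 38 and 40, against 200.02, 288, 303 and 220.4 CPM in HF mice 23, 25, 28 and 29. The 2 groups did not overlap, as was so for 15.7% of all genes tested. It had 136, 204, 243 and 435 CPM in NW mice 11, 12, 15 and 20, against 193, 229, 159 and 199 CPM in N mice 4, 5, 7 and 8, where the groups overlapped. The log2 difference was 0.97 (SE 0.29, adjusted p = 0.0268 in edgeR) in HFW against HF, where 9.85% of all genes passed. It was 0.66 (SE 0.22, adjusted p = 0.0215 in edgeR) for the mean of both WEPAK contrasts. The call in HFW against HF was lost without HF mouse 23, 25 or 29 or HFW mouse 36, 38 or 40, with values of 0.87 to 1.04 over all fits without a mouse, and also with no filter or thinned libraries. That of the mean was lost without NW mouse 20 (0.51, adjusted p = 0.0842 in edgeR), without N mice 4 and 8 together and with no filter. Slc38a3, a glutamine transporter, had -0.45 (SE 0.18, adjusted p = 0.0538) for the mean WEPAK effect. Of the 7 genes on this list 5 were tested, and 1 was higher and 0 lower for the mean WEPAK effect, beside 31.3% of all genes called in either direction.

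Of 30 pericentral enzymes and regulators of drug and lipid metabolism, 8 were tested, Gulo among them, and for the mean WEPAK effect 1 was higher and 2 were lower, a share near the 31.3% of all genes. Nr1i3, a nuclear receptor that senses drugs, rose by 0.76 (SE 0.26, adjusted p = 0.0256 in edgeR), with 239.7 ± 120.4 CPM in HFW against 128 ± 24.8 in HF and 207 ± 46.0 in NW against 134 ± 44.4 in N (SD, n = 4 each). Cyp2c29, a cytochrome P450, fell by 1.34 (SE 0.35, adjusted p = 0.0068), with 257 ± 171 CPM in HFW against 724 ± 383 in HF and 297 ± 127 in NW against 709 ± 212 in N. Pon1, a paraoxonase carried on high-density lipoprotein, fell by 1.10 (SE 0.27, adjusted p = 0.0032), with 167 ± 90.9 CPM in HFW against 335 ± 139.6 in HF and 122 ± 50.1 in NW against 271 ± 70.2 in N. Cyp2c29 and Pon1 had their lowest HF value in mouse 28, at 172 and 188 CPM, the liver with the high Rhbg. The Nr1i3 call was lost without N mouse 4, NW mouse 12, or HFW mouse 38 or 40 (0.62 without HFW mouse 40). It was also lost without N mice 4 and 8 together, with no filter and with limma-voom. The Cyp2c29 call was lost without N mice 4 and 8 together (-1.33, adjusted p = 0.0519 in edgeR). None of the 8 passed in HF against N, HFW against HF, NW against N or HFW against NW, beside 0.0956%, 9.85%, 11% and 0% of all genes. For the mean high-fat effect, where 0.574% of all genes passed, none of the 8 did. Mgst1, a microsomal glutathione transferase, had 0.62 there (SE 0.26, adjusted p = 0.181 in edgeR).

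**Figure D2:**
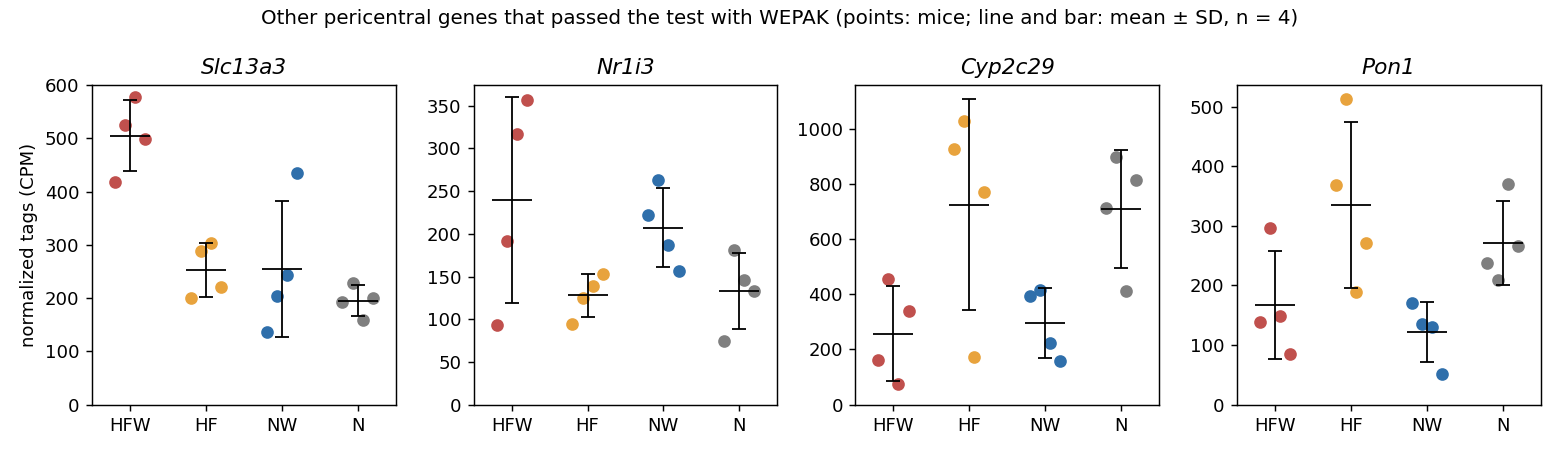
Normalized tags in CPM (vertical axes, each from 0) of Slc13a3, Nr1i3, Cyp2c29 and Pon1 in HFW, HF, NW and N mice from left to right. Each point is a mouse, and the line and bar are the group mean and SD (n = 4). The HFW mice are all above the HF mice for Slc13a3, and 15.7% of all genes tested separate these 2 groups in either direction. HF mouse 28 is at 172 CPM for Cyp2c29, apart from the other HF mice.

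Wnt signalling itself was thinly sampled. Of 13 Wnt target genes 12 had a tag and 1, the transcription factor Tbx3, was tested, and it passed in none of the 7 contrasts (-0.61, SE 0.34, adjusted p = 0.244 in HFW against HF). Rnf43 and Notum, feedback inhibitors of the Wnt signal, had 104 and 71 tags over the 16 libraries, and Lef1 had 0. The ligands Wnt2, Wnt9b and Rspo3 had 2, 2 and 8 tags, and beta-catenin (Ctnnb1) 32. Of 18 genes of ligands and signalling 3 were tested. Gsk3b, a kinase of the complex that degrades beta-catenin, fell by 0.81 (SE 0.21, adjusted p = 0.0044 in edgeR) for the mean WEPAK effect. It was the only 1 of the 3 to pass there, a share near the 31.3% of all genes. Gsk3b averaged 419 ± 89.1 CPM in HFW against 699 ± 264 in HF, and 311 ± 88.2 in NW against 579.7 ± 159.9 in N (SD, n = 4 each), and it kept its call for the mean WEPAK effect in every alternative run. The Wnt co-receptor Lrp5 and Porcn, the acyltransferase that lipidates Wnt proteins, passed in no contrast.

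Of 21 genes of glutamate, ornithine and proline metabolism, 7 were tested, and 2 were lower and 0 higher for the mean WEPAK effect, a share near the 31.3% of all genes. Slc25a13, the mitochondrial carrier of aspartate and glutamate, fell by 1.40 (SE 0.37, adjusted p = 0.0056 in edgeR), with 65.8 ± 30.4 CPM in HFW against 158 ± 89.9 in HF and 46.5 ± 25.7 in NW against 139 ± 68.8 in N (SD, n = 4 each). Gpt2, the mitochondrial alanine transaminase, fell by 0.63 (SE 0.24, adjusted p = 0.0396), a call that was lost with the DESeq2 Wald test (-0.66, adjusted p = 0.0558), with limma-voom, with no filter and with thinned libraries. It was also lost without N mouse 4, 7 or 8, NW mouse 11, 15 or 20, HF mouse 25, or HFW mouse 34, 36 or 40. Leaving out N mice 4 and 8 together ended the Slc25a13 call (-1.10, adjusted p = 0.0515 in edgeR) and that of Gpt2 (-0.56). Aldh4a1, a mitochondrial enzyme of proline breakdown, had -0.39 (SE 0.19, adjusted p = 0.12) for the mean WEPAK effect, and Slc7a2, a transporter of arginine and ornithine, -0.75 (SE 0.25, adjusted p = 0.0985) for the mean high-fat effect. Of the 8 genes of vitamin C synthesis and transport, Gulo was the only one tested.

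Periportal hepatocytes, at the other end of the lobule, gave 9 tested genes of 24 in the table. For the mean WEPAK effect 2 were higher and 1 lower, a share near the 31.3% of all genes. Fbp1 (0.92, SE 0.20, adjusted p = 0.0011 in edgeR) and Pck1 (0.92, SE 0.23, adjusted p = 0.0032), enzymes of glucose synthesis, rose. Arg1, the arginase that makes ornithine, the substrate of Oat, fell by 0.65 (SE 0.21, adjusted p = 0.0187). Fbp1 also rose in HFW against HF (1.06, SE 0.29, adjusted p = 0.0175 in edgeR), where 9.85% of all genes passed. This last call was lost without HF mouse 23 or HFW mouse 38 or 40, and with no filter (0.83, adjusted p = 0.108). The Arg1 call was lost without N mouse 5 or HF mouse 23 (-0.53 and adjusted p = 0.0605 in edgeR without HF mouse 23). For the mean high-fat effect 0 of the 9 passed, beside 0.574% of all genes. All 9 values were negative, with a median of -0.47 beside 0.01 over all genes tested. The largest were those of Cps1, the first enzyme of the urea cycle (-0.85, SE 0.23, adjusted p = 0.0617), and Pck1 (-0.82, adjusted p = 0.0617). The markers of all hepatocytes, of which Alb is also 1 of the 9, were negative too in 3 of 3 tested genes, with a median of -0.36. Pericentral genes had values in both directions on this contrast, with 0.23 for Oat, 0.59 for Slc1a2, 0.40 for Gulo and -0.02 for Glul. Slc13a3 had 0.68 (SE 0.22, adjusted p = 0.0817 in edgeR), while Cyp2e1, a cytochrome P450 that oxidizes ethanol, had -0.93 (SE 0.41, unadjusted p = 0.0396, adjusted p = 0.223), below any of the 9 periportal values, and Cyp27a1 -0.42. The difference between the pericentral and the periportal genes was not tested.

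**Figure D3:**
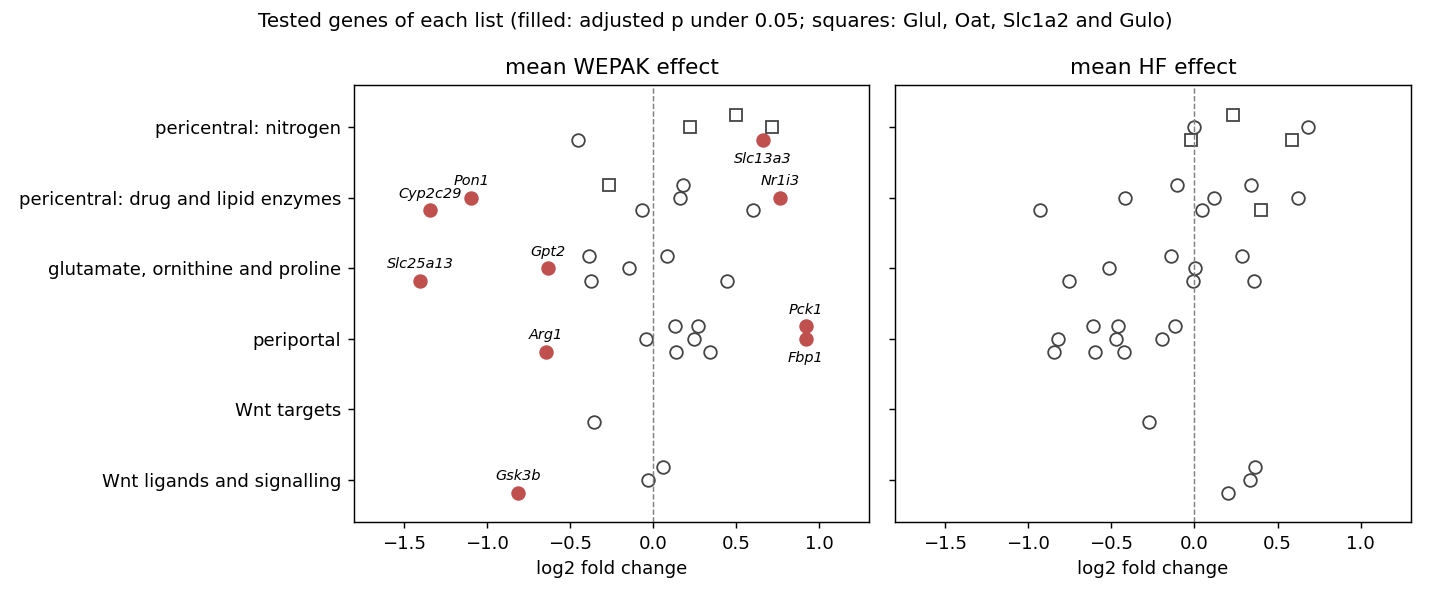
Fitted log2 fold changes (horizontal axis) of the tested genes of each list (rows) for the mean WEPAK effect at left and the mean high-fat effect at right; each mark is a gene, filled where the adjusted p was under 0.05, and squares mark Glul, Oat, Slc1a2 and Gulo. All squares are open, 10 marks are filled at left, of which Slc13a3, Nr1i3, Fbp1 and Pck1 lie right of 0, and none is filled at right.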

How the data were processed

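Total liver RNA of 16 mice was made into SuperSAGE libraries with NlaIII and EcoP15I, per the labels' protocols. Per the file headers, the deposited values are raw counts of tags for each mouse and RefSeq transcript. The sources used here do not give how tags were matched, the RefSeq release or any molecular identifiers, so limits from counts cover counting error only. Rows without a symbol (417, with 0.0729% of tags) were left out, and 41 symbols turned into dates were restored, except 1 that was dropped. Counts were summed per symbol. Chi-square per degree of freedom between libraries of a group was 2.24 or more, so none were treated as duplicates, and was highest, 9.64, between N mice 4 and 8, which an alternative leaves out.

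Counts were fitted in R 4.3.3 with edgeR 4.0.16, using TMM normalization, the default filter (minimum count 10, 1046 genes), a robust quasi-likelihood fit of all 16 mice with a mean per group, and Benjamini-Hochberg adjustment over all genes tested, with a threshold of 0.05. Standard errors were derived from the fold change and its F value. The mean WEPAK effect averages HFW minus HF and NW minus N, and the mean HF effect HF minus N and HFW minus NW. Log2 CPM used a prior count of 2. Rhbg and Lgr5, below the filter with at least 10 tags, had exact permutation tests of CPM, within strata for the mean effects. The 6 correlations were of log2 CPM with group means removed, with 100000 permutations of mice within groups each (scipy 1.17.1). The functions were tested on simulated counts. Alternatives were DESeq2 1.42.0 (size factors, Wald test), limma-voom (limma 3.58.1), other filters, a non-robust fit, the compared groups alone, transcript rows tested separately, thinned libraries, the 10 most abundant genes left out, and mice left out. Tags were read from GENCODE vM21 transcripts on GRCm38, and all 10 rows matched by RefSeq identifier.

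The 8 genes and all lists were chosen with earlier results of these data known. Named genes were the 8, every gene of a list that passed in a contrast, up to 4 genes of a list with the smallest unadjusted p, and for each tested gene the 3 most correlated genes. Cyp2e1, Cyp27a1, Rnf43, Notum, Lef1, Ctnnb1 and the ligands were named outside this rule, after their values were seen.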

Additional observations from a re-analysis of the deposited data

Results flagged for a closer look

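Rhbg in the HF group was set apart by HF mouse 28, at 409.4 CPM from 50 tags, while the other 3 HF mice had 52.6, 93.9 and 76.3 CPM. The gap to the next HF mouse, divided by the range of the group, was 0.884, above Dixon's critical value of 0.829 for 4 samples. Of 24 combinations of gene and group looked at, 1 passed, and chance passes about 1 in 20. The difference between HF and N without this mouse was 8.11 CPM, against 91.9 CPM with it. The same library was the highest of the HF mice in Col3a1, with 2432 CPM against 211 to 657 CPM, and in Col1a1, with 418 CPM against 10.5 to 106 CPM, and the lowest in Cps1, with 3120.01 CPM against 7595 to 9138 CPM, and in Alb, with 2809 CPM against 3855 to 5327 CPM. In the hepatocyte marker Apoa2 it was the highest of the HF mice, with 48372.5 CPM against 39495 to 47827 CPM. The cause was not tested.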

How the results depend on the processing

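None of the tested genes among the 8 passed in any of the 172 combinations of a contrast and an alternative that tested at least 1 of them, the other 14 tested none, and with no filter 0 of all 8 passed. No paired analysis was possible because the replicate numbers are mouse numbers that no 2 groups share. The count of all genes called moved more. For HF minus N it was 1, and 0 with a minimum count of 20, with limma-voom and with the 2 groups alone, 2 with the DESeq2 Wald test, and 0 to 31 with a mouse left out. For HFW minus HF it was 103, 156 without N mice 4 and 8, and 40 to 150 with a mouse left out. For NW minus N it was 115, 70 with no filter, 38 without N mice 4 and 8, and 31 to 178 with a mouse left out. For HFW minus NW it was 0, 1 with thinned libraries, 3 with the 2 groups alone, and 0 to 3 with a mouse left out. For the mean HF effect it was 6, 30 with no filter, 3 with a minimum count of 20, 34 with the DESeq2 Wald test, 55 without N mice 4 and 8, and 0 to 107 with a mouse left out. The cause was not tested.

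Values near 0 changed sign, none of them past the threshold. With no filter, Oat in HFW minus HF was -0.16, Gulo in HFW minus HF -0.11, Glul for the mean HF effect 0.058 and Slc1a2 for the interaction -0.093; this setting moved the median of the 1046 genes by -0.22 in HFW minus HF. Glul for the mean HF effect was 0.0048 with the DESeq2 Wald test and 0.074 without N mice 4 and 8, Slc1a2 for the interaction -0.12 with limma-voom, and r of Oat with Slc1a2 0.0077 with thinned libraries. With a mouse left out, Gulo ran from -0.24 to 0.077 in HF minus N and -0.011 to 0.15 in HFW minus HF, Oat from -0.042 to 0.29 in HFW minus HF and -0.20 to 0.28 in HFW minus NW, Glul from -0.19 to 0.12 for the mean HF effect and Slc1a2 from -0.39 to 0.42 for the interaction. Rhbg in HFW minus HF ran from -113 to 5.66 CPM, and r from -0.36 to 0.048 for Glul with Slc1a2, -0.44 to 0.25 for Oat with Slc1a2 and -0.39 to 0.28 for Slc1a2 with Gulo. Depth limits these genes: Gulo passed the filter in 8 of the 16 fits with a mouse left out and Glul in 15, and none of the 8 passed it with a minimum count of 20 or in thinned libraries. The mean HF difference of Rhbg had an unadjusted exact permutation p of 0.0343 without HF mouse 23 and 0.0445 without HFW mouse 36, and that of Lgr5 0.0347 without NW mouse 11. The r of Glul with Oat ran from 0.26 to 0.64 with a mouse left out. Its unadjusted permutation p was 0.0205 without NW mouse 11 and 0.0108 without NW mouse 12.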
